A study of Homo sapiens with 6 samples.

Results

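Neuroendocrine cells store peptides in dense-core granules, and the genes of these granules serve as markers of the neuroendocrine state of small cell lung cancer. The set described here held 10 neuroendocrine markers out of 62710 rows of the expression table. They included the transcription factor *INSM1*, the granins *CHGA*, *CHGB*, *SCG2* and *SCG3*, and the vesicle membrane protein *SYP*. The prohormone processing genes *PCSK1*, *PCSK1N*, *CPE* and *SCG5* completed the set. The genes were listed by name, with earlier results of these data known, and all 10 were found in the table. Their RNA was measured in H526, an established small cell lung cancer cell line, in 3 libraries of parental cells (numbers 1 to 3) and 3 libraries of onvansertib-resistant cells (numbers 7 to 9). Both were kept in RPMI-1640 medium with fetal bovine serum. The resistant cells were obtained by raising onvansertib, an inhibitor of the mitotic kinase PLK1, from 10 to 75 nM during more than 1 year. Total RNA was harvested from each line at 3 separate times. There was therefore 1 resistant line, so that resistance, drug exposure and the history of this line cannot be told apart, and the p-values below measure the spread between harvests of the same lines.

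A granule forms at the trans-Golgi network, where granins aggregate with calcium and cargo. The convertase encoded by *PCSK1* cuts prohormones at pairs of basic residues, carboxypeptidase E trims the exposed residues, and the cargo is released when the granule fuses with the plasma membrane. *INSM1* encodes a zinc-finger factor of neuroendocrine and pancreatic endocrine cells that recruits the histone demethylase KDM1A, and INSM1, chromogranin A and synaptophysin are stained in pathology to recognise neuroendocrine tumours.

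The labelled cell type was read against the factors that define subtypes of small cell lung cancer. *POU2F3*, the factor of the tuft cell-like subtype, had normalized values of 26809, 24511 and 26106 in parental and 27102, 26844 and 27873 in resistant libraries. *NEUROD1*, a neuroendocrine lineage factor, did not exceed 5.49 in any library. A limit of 3 reads, used here for detection, corresponds to a value of 2.84 in parental and 3.17 in resistant libraries on average and covers counting error only. The genes of the set were thus measured in a POU2F3-expressing line. *YAP1*, a transcriptional coactivator, rose from 48.9 ± 6.86 to 111 ± 16.1 (SD, n = 3 libraries, limma adjusted p = 0.002361). In bulk RNA, fewer cells of a type and less RNA per cell cannot be told apart, for the genes of the set as for any other.

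RefSeq promoters (GRCh38.p14) were matched by symbol for 7 of the 10 genes: *CHGA*, *SYP*, *SCG3*, *SCG5*, *PCSK1*, *PCSK1N* and *CPE*. *INSM1*, *CHGB* and *SCG2* were not matched. The 250 bases before the RefSeq start, which can differ from the end of the Gencode gene given with each member and for *CPE* lies inside it, are given for 3 genes with large differences (*CHGA*, *SCG3* and *SYP*) and for 2 with small ones (*CPE* and *PCSK1N*), so that the upstream sequences of the contrasting genes can be read side by side. They lie at chr14:92922900-92923149 on the plus strand (*CHGA*), chr15:51681253-51681502 on the plus strand (*SCG3*), chrX:49200194-49200443 on the minus strand (*SYP*), chr4:165378758-165379007 on the plus strand (*CPE*) and chrX:48835611-48835860 on the minus strand (*PCSK1N*), each written 5′ to 3′ on the strand of the gene. Capitals mark the motifs searched on both strands: the cyclic AMP response element TGACGTCA, the GC box GGGCGG and the E-box CAGCTG. The last line is a stretch just after the start of *SCG3*, at chr15:51681511-51681536 on the plus strand, in which capitals mark CAGCACC and GGACAG, the left and right parts of the RE1 element read by the repressor REST.
CHGA: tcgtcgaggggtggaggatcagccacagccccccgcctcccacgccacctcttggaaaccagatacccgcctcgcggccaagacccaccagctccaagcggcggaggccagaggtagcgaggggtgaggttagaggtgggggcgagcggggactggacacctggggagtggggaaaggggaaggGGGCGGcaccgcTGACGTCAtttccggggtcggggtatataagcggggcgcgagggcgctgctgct
SCG3: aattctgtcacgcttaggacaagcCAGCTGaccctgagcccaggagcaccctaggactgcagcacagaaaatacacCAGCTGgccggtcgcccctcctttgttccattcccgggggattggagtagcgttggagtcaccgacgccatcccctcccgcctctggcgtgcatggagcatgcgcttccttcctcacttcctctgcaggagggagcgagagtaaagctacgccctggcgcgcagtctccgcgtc
SYP: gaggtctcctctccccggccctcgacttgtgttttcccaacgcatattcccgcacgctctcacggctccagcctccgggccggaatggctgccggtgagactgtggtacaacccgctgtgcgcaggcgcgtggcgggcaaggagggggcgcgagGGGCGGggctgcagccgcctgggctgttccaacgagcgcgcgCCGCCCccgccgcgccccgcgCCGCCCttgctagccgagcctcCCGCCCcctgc
CPE: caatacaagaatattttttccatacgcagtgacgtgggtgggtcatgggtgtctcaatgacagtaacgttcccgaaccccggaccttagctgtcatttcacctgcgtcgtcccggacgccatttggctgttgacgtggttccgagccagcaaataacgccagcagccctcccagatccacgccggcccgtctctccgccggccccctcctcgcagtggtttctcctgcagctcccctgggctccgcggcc
PCSK1N: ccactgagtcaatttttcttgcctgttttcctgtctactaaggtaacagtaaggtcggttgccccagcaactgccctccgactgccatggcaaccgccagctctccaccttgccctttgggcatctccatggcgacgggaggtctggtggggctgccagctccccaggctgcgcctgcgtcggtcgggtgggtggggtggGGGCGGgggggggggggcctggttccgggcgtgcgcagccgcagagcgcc
SCG3 after the start: ttCAGCACCcacagggcGGACAGcgc

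The cyclic AMP response element stood 54 bases before the start of *CHGA*, and 77 bases before that of *PCSK1*. It was found in 1.85% of 35116 RefSeq promoters of 300 bases. The GC box, found in 45% of them, stood 4 times before the start of *SYP*, and once each before *CHGA*, *PCSK1*, *PCSK1N* and *SCG5*. *SCG3* had 2 E-boxes (17.9% of promoters). Of the matched genes only *SCG3* held both parts of RE1 in order on 1 strand within 20 bases, with 8 bases between them in place of the usual 2, against 0.191% of all promoters for any such gap and 0.0513% for the usual one. A GC box overlapped the right part. The *CPE* stretch held none of these letters. A match describes letters in this window and no binding was measured.

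*INSM1* (ENSG00000173404, chromosome 20, 20368104 to 20370949, plus strand) had values of 6729, 5918 and 5626 in parental libraries and of 1191, 1385 and 1183 in resistant libraries. Every parental library lay above every resistant library, and the lowest parental value was far from the highest resistant value. The difference was −2.28 on the log2 scale (SE 0.0891, 95% interval −2.48 to −2.08, limma adjusted p = 1.642e-07), so that 20.6% of the parental level was left.

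*CHGA*, *CHGB* and *SCG3* fell with log2 differences whose 95% intervals lay below that of *INSM1*. *CHGA* (ENSG00000100604, chromosome 14, 92923150 to 92935285, plus strand) encodes chromogranin A, an acidic protein that drives aggregation in the granule. It had values of 306, 247 and 210.1 in parental and of 12.2, 9.88 and 16.4 in resistant libraries. The resistant values correspond to about 11.7, 9.49 and 15.2 reads, so all 3 were low but above the limit of 3 reads. The difference was −4.22 (SE 0.264, 95% interval −4.81 to −3.63, limma adjusted p = 2.815e-06), the largest among the 7 genes of the set that were tested.

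*CHGB* (ENSG00000089199, chromosome 20, 5911510 to 5925353, plus strand) encodes chromogranin B, a related granule matrix protein. It had values of 293, 226 and 204 in parental and of 21.7, 12.9 and 16.0 in resistant libraries. The groups were far apart, as for *CHGA*, and the difference was −3.77 (SE 0.260, 95% interval −4.35 to −3.19, limma adjusted p = 4.674e-06).

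*SCG3* (ENSG00000104112, chromosome 15, 51681492 to 51721026, plus strand) encodes secretogranin III, which links chromogranin A to the granule membrane and is the gene whose RE1 letters are printed above. Its values were 267, 177 and 136 in parental and 16.6, 14.8 and 14.3 in resistant libraries. The parental libraries were widely spread (SD 66.9 about a mean of 193) while the resistant libraries were close together, and the groups did not overlap. The difference was −3.53 (SE 0.283, 95% interval −4.16 to −2.90, limma adjusted p = 1.164e-05).

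*SCG2* (ENSG00000171951, chromosome 2, 223596940 to 223602361, minus strand), the precursor of the peptide secretoneurin, was near the limit of detection throughout. It had values of 2.56, 0.697 and 2.82 in parental and of 0, 0.748 and 0 in resistant libraries. The groups overlapped, no library exceeded 3 reads, and the gene was not tested because its mean was under 10.

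*SYP* (ENSG00000102003, chromosome X, 49187815 to 49200218, minus strand) encodes synaptophysin, an abundant membrane protein of synaptic and synaptic-like vesicles. Its values were 1428, 1384 and 1192 in parental and 251, 293 and 360 in resistant libraries. All parental values were well above all resistant values. The difference was −2.15 (SE 0.136, 95% interval −2.46 to −1.85, limma adjusted p = 2.965e-06), and 22.6% of the parental level was left, close to the 20.6% of *INSM1*.

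The prohormone processing genes differed far less, or were hardly present. *CPE* (ENSG00000109472, chromosome 4, 165361194 to 165498547, plus strand), which encodes carboxypeptidase E, had values of 2741, 2584 and 2356 in parental and 1851, 1916 and 2082 in resistant libraries. The groups did not overlap, but the gap between them was small. The difference was −0.39 (SE 0.0792, 95% interval −0.57 to −0.22, limma adjusted p = 0.003393), and 76.2% of the parental level was left.

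*PCSK1N* (ENSG00000102109, chromosome X, 48831096 to 48835610, minus strand) encodes proSAAS, an inhibitor of the convertase PC1/3. It had values of 3034, 3027 and 2675 in parental and of 2458, 2417 and 2604 in resistant libraries. The highest resistant value came close to the lowest parental value. The difference of −0.22 (SE 0.0728, 95% interval −0.38 to −0.06) passed the threshold (limma adjusted p = 0.03546), but in 9 of 14 alternative settings it did not, with a largest adjusted p of 0.3278 and differences between −0.28 and −0.11. The call was lost when parental library 1 (adjusted p = 0.09139), parental library 2 (0.09995), resistant library 7 (0.0932) or resistant library 8 (0.1061) was left out of the limma fit.

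*PCSK1* (ENSG00000175426, chromosome 5, 96390333 to 96434143, minus strand), the convertase PC1/3 itself, had values of 9.26, 3.56 and 2.57 in parental libraries, while each of the 3 resistant libraries listed it at 0. Its level exceeded 3 reads in 2 parental libraries. *SCG5* (ENSG00000166922, chromosome 15, 32641676 to 32697098, plus strand), which encodes the convertase chaperone 7B2, had values of 0.638, 4.402 and 1.69 in parental and 0, 1.19 and 2.31 in resistant libraries. The *SCG5* groups overlapped, and both genes were below the mean of 10 that was set for testing. When the filter was dropped, *PCSK1* passed the threshold (limma adjusted p = 0.007298), and *SCG5* (0.6114) and *SCG2* (0.1245) did not.

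**Figure D1:**
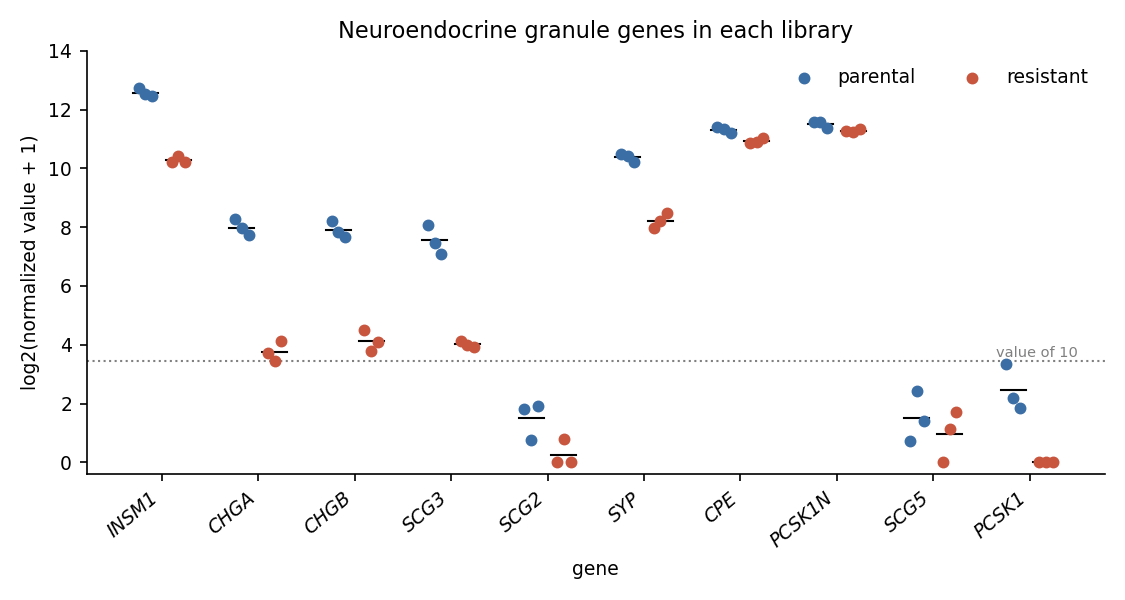
Log2(normalized value + 1) of each gene of the set in the 3 parental and 3 resistant libraries, with 1 point per library, a bar at the mean of each group and a dotted line at a value of 10. *INSM1*, *SYP* and the granins *CHGA*, *CHGB* and *SCG3* separate widely, *CPE* and *PCSK1N* stay within 1.31-fold between group means, and *SCG2*, *SCG5* and *PCSK1* lie at the bottom of the scale.

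Of the 10 genes, 7 passed the filter on low values and all 7 were called lower by limma, where 37.7% of 16347 genes tested were called in either direction, 19.8% lower and 17.8% higher. With upper quartile scaling the split over all genes tested turned from 3244 lower and 2917 higher to 2450 lower and 3694 higher. None of the 7 passed the filter through the parental libraries alone. *INSM1*, *CHGA*, *CHGB*, *SCG3* and *SYP* were called with a difference beyond −2 on the log2 scale, as were 1.17% of all genes tested. The parental libraries lay above the resistant libraries without overlap in all 7, and in 25.9% of genes tested. An exact permutation test (two-sided) gave p = 0.1 for each of the 7, the smallest value that 3 against 3 libraries allow. The median difference over the 7 was −2.28, against −0.0009 over all genes tested. Because the set was chosen with earlier results of these data known, its contrast with all genes is a description and not a test. The same holds for the related lists below.

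Ranked among all 16347 genes tested, 65 had a lower log2 difference than *CHGA*, 77 than *CHGB*, 87 than *SCG3*, 168 than *INSM1* and 178 than *SYP*. *CPE* and *PCSK1N* stood much closer to the middle, with 3045 and 4768 genes below them. *CHGA*, *CHGB* and *SCG3* lay below the 1% point of the distribution, which was −2.33, and *INSM1* and *SYP* lay between the 1% and the 5% points (−2.33 and −0.92).

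**Figure D2:**
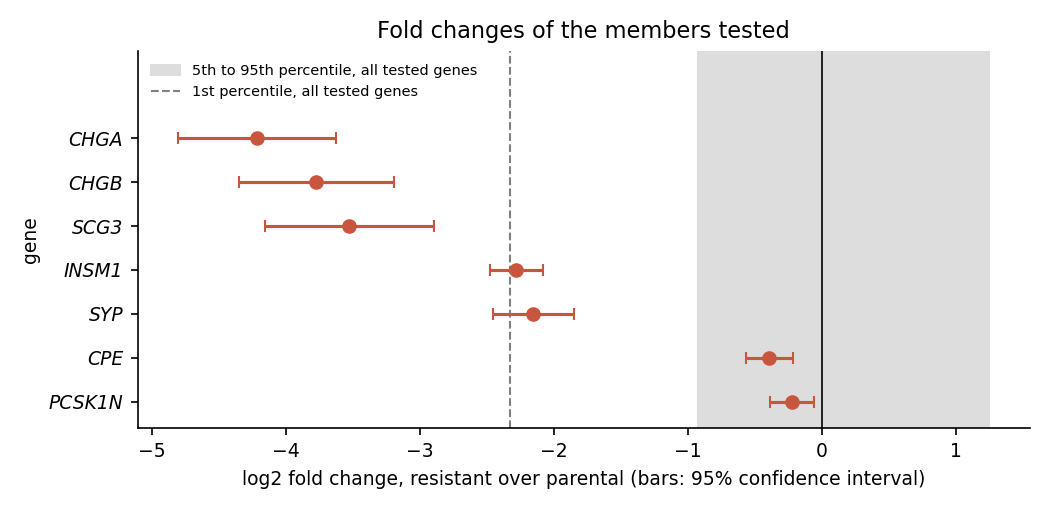
Log2 fold change (resistant over parental) of the 7 genes tested, with the limma 95% interval. *CHGA*, *CHGB* and *SCG3* lie between −4.22 and −3.53, *INSM1* and *SYP* at −2.28 and −2.15, and *CPE* and *PCSK1N* between −0.39 and −0.22.

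Within the parental group, library 1 was the highest and library 3 the lowest for all 7 genes tested. Library 1 was also the deepest of the 6, with about 28476925 reads, against 25641274 in library 2 and 25664340 in library 3. The part of depth in this order was not tested. The resistant libraries had between 22302356 and 23275730 reads, and no common order was seen: library 7 was highest for *CHGB* and *SCG3*, library 8 for *INSM1*, and library 9 for *CHGA*, *SYP*, *CPE* and *PCSK1N*. For *INSM1*, *CHGA*, *CHGB*, *SCG3*, *SYP* and *CPE* the call was kept when any of the 6 libraries was left out.

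Levels of different genes were compared per kilobase of the transcript that Gencode v44 tags as the Ensembl canonical one. In parental cells *PCSK1N* stood first at 2841 ± 200.2 per kb (SD, n = 3), followed by *INSM1* at 2140.2 ± 200.8, *CPE* at 992 ± 74.9 and *SYP* at 551 ± 51.9. Each of these 4 was separated from the next without overlap. *CHGA* (128 ± 24.3), *CHGB* (97.9 ± 18.9) and *SCG3* (61.2 ± 21.2) followed, and neighbours among these 3 overlapped. *SCG5*, *PCSK1* and *SCG2* came last, at mean levels between 0.833 and 1.87 per kb, and overlapped.

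In resistant cells the order changed at the top. *PCSK1N* remained first at 2432 ± 96.1 per kb, *CPE* was second at 755 ± 46.0, and *INSM1* dropped to the third place at 440.2 ± 40.2, ahead of *SYP* at 124 ± 22.6. *CHGB* (6.84 ± 1.81), *CHGA* (6.46 ± 1.65) and *SCG3* (4.83 ± 0.391) came next, and neighbours among these 3 overlapped, as in parental cells.

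**Figure D3:**
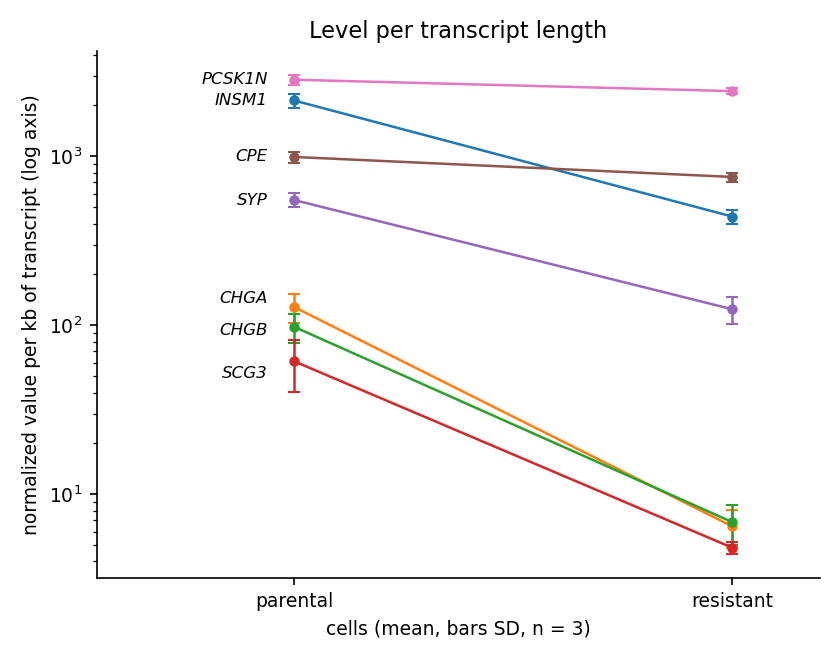
Normalized value per kilobase of transcript (log axis) of the 7 genes tested in parental and resistant cells, as the mean of 3 libraries with SD bars, joined by a line for each gene. *PCSK1N* is highest in both groups, at 2841 and 2432 per kb, and *INSM1* and *CPE* exchange places.

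Ratios between genes within a library do not depend on the scaling factor of that library. The ratio of *INSM1* to *CPE* per kb was 2.23, 2.08 and 2.17 in parental and 0.584, 0.656 and 0.515 in resistant libraries. The lower coordinates of *SYP* and *PCSK1N* lie 357 kb apart on chromosome X. The ratio of *SYP* to *PCSK1N* was 0.199, 0.194 and 0.189 in parental and 0.0432, 0.0514 and 0.0585 in resistant libraries. Neither ratio overlapped between groups. The ratio of *CHGA* to *CHGB* was 1.29, 1.36 and 1.28 in parental and 0.700, 0.950 and 1.27 in resistant libraries, a wide spread among resistant values that rest on few reads.

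Each tested gene of the set was set beside its neighbours on the chromosome. Neighbours were the tested genes next to it in gene order on both sides, whatever their distance. The median difference of the 50 nearest tested neighbours was −0.04 around *INSM1*, −0.01 around *CHGB* and −0.05 around *SYP*, and it was positive around *CHGA* (0.41) and *SCG3* (0.58). None of the 50 neighbours of *INSM1*, *CHGA*, *CHGB*, *SCG3* or *SYP* had a difference as low as the member itself. Of the nearest tested protein-coding genes of *INSM1*, *CFAP61* was at −1.25 and did not pass the threshold (limma adjusted p = 0.06467), and *RALGAPA2* was lower, at −0.22 (limma adjusted p = 0.03692). Those of *SCG3*, *DMXL2* and *LYSMD2*, were higher in resistant cells, at 0.95 and 0.92 (limma adjusted p = 8.466e-05 and 0.001823), while *SCG3* was lower. Those of *CHGA*, *GOLGA5* and *ITPK1*, were also higher, at 0.53 and 0.37 (limma adjusted p = 0.001217 and 0.003854). Neither neighbour of *CHGB* (*SHLD1*, −0.31, and *TRMT6*, −0.09) or of *SYP* (*PRICKLE3*, −0.04, and *CCDC22*, −0.22) passed the threshold.

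*CPE* and *PCSK1N* were not set apart from their surroundings in this way. Around *CPE* 4 of 50 neighbours were as low, among them the nearest on one side, *SPOCK3*, at −1.38 (limma adjusted p = 0.006789), while *MSMO1* on the other was at 0.07. Around *PCSK1N* 19 of 50 were as low, among them *PQBP1* at −0.42 (limma adjusted p = 0.003709), while *HDAC6* was at 0.10. The 19 included *SYP*, itself a gene of the set. When the local median was subtracted in each library, *CHGA* and *SCG3* reached −4.62 and −4.12, the lowest values of any of the 14 alternatives for either gene.

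**Figure D4:**
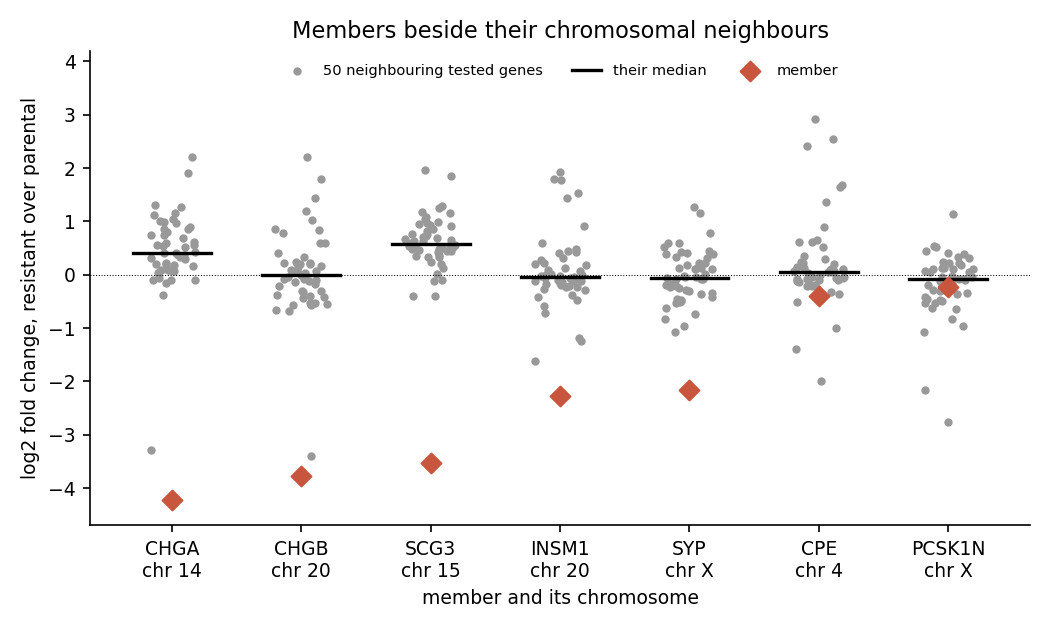
Log2 fold change (resistant over parental) of each gene of the set tested (diamond) and of its 50 tested neighbours in gene order (points, with their median as a bar), by chromosome. *CHGA* and *SCG3* lie far below neighbours with medians of 0.41 and 0.58, while *CPE* and *PCSK1N* lie within the range of their neighbours. The lowest neighbour of *CHGB*, at −3.39, is *SNAP25*.

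Other proteins of the granule and its release machinery were counted from a list of 26 genes, of which 23 were tested. Of these, 11 were lower and 6 higher in resistant cells, where 37.7% of all genes tested were called, 19.8% lower and 17.8% higher. With upper quartile scaling 8 were lower and 6 higher. Without the intensity trend, or with a minimum mean of 50, 7 were lower and 5 higher. *SNAP25*, a SNARE protein of vesicle fusion, fell from 380.1 ± 58.9 to 35.4 ± 6.75, a log2 difference of −3.39 (limma adjusted p = 2.246e-06). *PTPRN2*, a granule membrane protein, had values of 44.7, 81.4 and 39.7 in parental libraries and stood at 0 in each resistant one. *CADPS2*, a priming factor for granule release, fell by 1.26 on the log2 scale, and *BAIAP3*, a protein of the Munc13 family that acts in granule recycling, rose by 3.07. The median of the list was −0.22, and 3 of its genes, *PTPRN2* among them, passed the filter through the parental libraries alone. All 3 were among the 11 called lower. The total of 17 called genes became 11 when parental library 1 was left out.

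Among 11 tested of 14 other prohormone processing enzymes, 3 were lower and 2 higher, a total of 5 of 11 beside the 37.7% called over all genes tested, with a median of −0.20. With local median centring 2 were lower and 3 higher. The convertase genes *PCSK5* and *FURIN* differed by −0.89 and −0.31, and the amidating enzyme gene *PAM* by −0.22. *FURIN* turned to 0.27 with local median centring, and the count of 5 fell to 3 without parental library 3. Of 40 peptide hormone and neuropeptide precursors, the cargo of the granule, 6 were tested and 2 were called, both lower: *NMU* (neuromedin U, 12373 to 6188) and *GAL* (galanin, 753 to 516). The other 34 had too low a mean, 17 of them at 0 in all 6 libraries. The median over the 6 tested was 0.41. The 2 of 6 called stand beside 37.7% over all genes tested. With upper quartile scaling, or without parental library 2, 2 were lower and 1 higher.

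Of 16 neuroendocrine markers outside the granule, 13 were tested, 9 were lower, none was higher and 4 did not pass the threshold, beside 19.8% called lower over all genes tested. Their median was −0.47, and 1 passed the filter through the parental libraries alone. *TUBB3*, a neuronal tubulin, differed by −2.38, *CELF3*, a splicing regulator, by −3.04, and *SEZ6L*, a neuronal membrane protein, by −3.51. *SEZ6* had values of 914, 626 and 472 in parental and of 0.896, 2.68 and 18.2 in resistant libraries. It was the gene that passed the filter through the parental libraries alone. *TUBB3*, *CELF3*, *SEZ6L* and *SEZ6* were the 4 genes of the list called with a difference beyond −2. The other genes called, *NCAM1*, *DLL3*, *ELAVL2*, *UCHL1* and *KIF1A*, differed by only −0.48 to −0.19. Among 11 tested of 22 neuroendocrine transcription factors other than *INSM1*, 2 were higher (*FOXA1* by 0.65 and *NKX2-1* by 1.36), 2 were lower (*SOX2*, −0.30, and *POU3F2*, −0.23) and the median was 0.02. The 4 of 11 called stand beside 37.7% over all genes tested, and *NKX2-1* passed the filter through the resistant libraries alone. The split depended on scaling, with 3 higher and 0 lower with upper quartile scaling and 0 higher and 3 lower with local median centring. The count of 4 became 1 without parental library 3 or resistant library 7, and 2 without resistant library 8 or 9.

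*REST*, the repressor that reads RE1, rose from 895 ± 79.2 to 1392 ± 91.0, a log2 difference of 0.64 (limma adjusted p = 0.0004472). Of 17 cofactors of INSM1 and REST, counting *REST* itself, 7 were higher and 5 lower, beside 37.7% called over all genes tested, with a median of 0.04. With upper quartile scaling 7 were higher and 3 lower, and with local median centring 2 were higher and 2 lower. *GFI1*, which like *INSM1* encodes a zinc-finger repressor that recruits KDM1A, rose by 2.19, *HDAC1* fell by 0.38 on the log2 scale, and *SIN3A* rose by 0.40 but was at −0.06 with local median centring. Of 21 tuft cell genes, 18 were tested, 11 were higher and 3 lower, beside 17.8% called higher and 19.8% lower over all genes tested. The median of the list was 0.43. *TRPM5*, a cation channel, was at 1.77, *ALOX5*, a leukotriene enzyme, at 1.07, *IRAG2* at 0.75 and *AVIL*, an actin-binding protein, at −0.80. The split was 12 higher and 3 lower with upper quartile scaling, and 10 higher and 3 lower with local median centring.

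**Figure D5:**
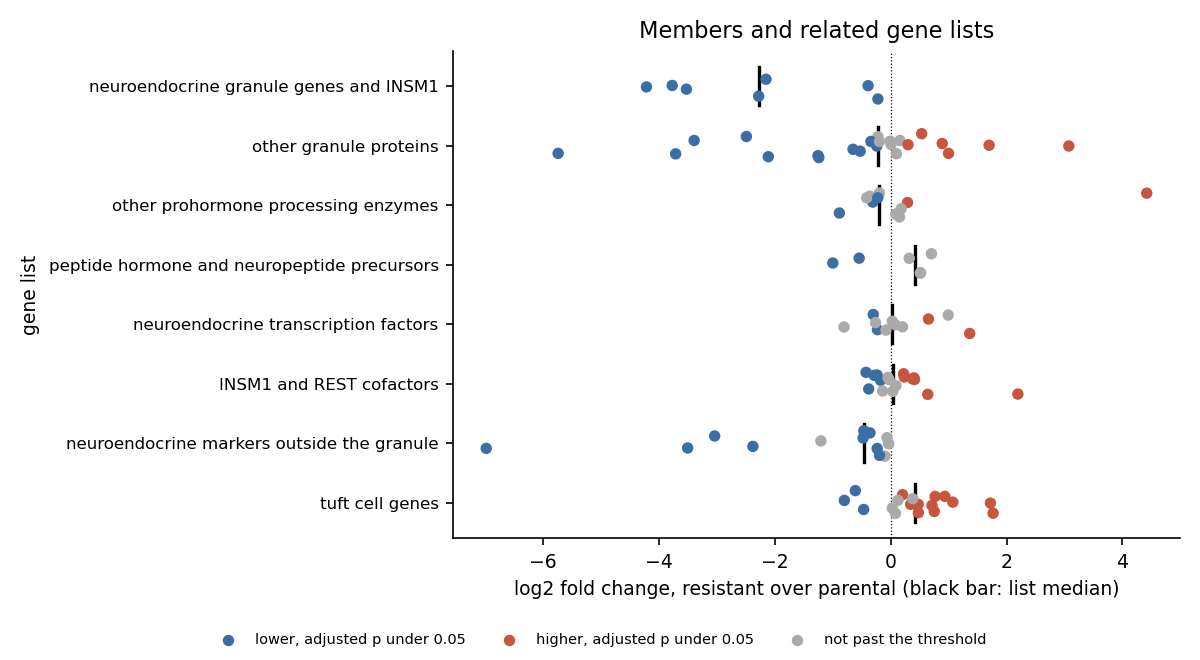
Log2 fold change (resistant over parental) of every tested gene in the set and in 7 related lists, with 1 point per gene coloured by its call and a black bar at the list median. The set has its median at −2.28, neuroendocrine markers outside the granule at −0.47 and tuft cell genes at 0.43.

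The pattern of *INSM1* over the 6 libraries was compared with that of 11893 genes with a mean of at least 100, by Pearson correlation of log2 values, as a description in which both groups differ and libraries share their scaling. The genes most like it were *TMEM183A* (r = 0.9996), *SNAP25* (0.9994), *SOGA3* (0.9993), *TBC1D30* (0.9992) and *ZNF718* (0.9985), which themselves differed between groups by −0.57, −3.39, −2.69, −2.45 and −1.04 on the log2 scale. Within the set, *SCG3* had r = 0.9925, *CHGA* 0.9886, *CHGB* 0.9866, *SYP* 0.9865, *CPE* 0.9349 and *PCSK1N* 0.8597. Of the 11893 genes compared, 111 had a higher r than *SCG3*, 189 than *CHGA*, 234 than *CHGB* and 236 than *SYP*. For *CPE* and *PCSK1N* these counts were 1492 and 2546.

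Markers of cell types other than the line were counted beside these results. Of 13 markers, 4 were tested and 3 were higher in resistant cells, beside 17.8% called higher over all genes tested. These were *COL1A1* (2.20), *COL1A2* (1.15) and *VWF* (0.77), genes of fibroblasts and endothelium. *FOXJ1*, the other one tested, was at −0.88 and did not pass the threshold (limma adjusted p = 0.2663). Of other fibroblast and endothelial markers, *LUM* went from a mean of 6.27 to 4.74 and *DCN* from 0.34 to 1.04. *PECAM1* did not exceed 0.198 in any library, and none of these was tested. *SCGB1A1*, *CDH5* and *CD3E* were at 0 in all 6 libraries, 8 of the 13 did not exceed 3 reads in any, and the summed level was 398 to 533 in parental and 833 to 1046 in resistant libraries, against 12406 to 14810 and 5802 to 6277 for the 10 genes of the set. The part of these genes in the results was not tested.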

How the data were processed

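Total RNA of 3 parental and 3 onvansertib-resistant H526 harvests was sequenced by the study. Per the study's methods and the submitters' processing notes, the authors trimmed reads with Trimmomatic 0.38, aligned and quantified them with RSEM 1.3.1 (STAR) on GRCh38 with Gencode v43, and deposited a normalized signal per gene made with DESeq2 1.30.0, with no filter on low values. The signal is neither whole reads nor per length, so the study's Wald test could not be run. The values of rarely read genes put the depth at 22302356 to 28476925 reads per library and did not return whole reads.

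The table had 62757 rows, of which 47 second copies of pseudoautosomal genes were left out, and 62639 of the remaining 62710 had a Gencode v44 symbol. For genes whose mean reached 10, limma 3.58.1 in R 4.3.3 was run on log2(value + 1), using lmFit and a trended eBayes. P-values were adjusted over all genes tested by Benjamini-Hochberg, with a threshold of 0.05. Fold changes on this scale understate the change of low genes. The steps were tested on simulated data. Other steps used Python 3.11.15, numpy 2.4.6, pandas 2.3.3, scipy 1.17.1 and matplotlib 3.10.9.

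All 10 genes of the set were named, up to 4 genes of each list with the smallest limma p among those past the threshold, subtype factors, the 5 genes most like *INSM1* and the nearest tested protein-coding neighbours. Beyond this rule, the 3 markers of other cell types at 0, *FOXJ1*, *LUM*, *DCN* and *PECAM1* were named after their values were seen. So were *NCAM1*, *DLL3*, *ELAVL2*, *UCHL1* and *KIF1A*. Some results of this rule are not reported here. The members and lists were chosen with earlier results of these data known. As alternatives, the pseudocount was set to 0.1 or 10, the filter was dropped or raised to a mean of 50, and the other choices were upper quartile scaling, quantile normalization, no intensity trend, centring on the median of 51 neighbouring genes, and each library left out in turn.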

Additional observations from a re-analysis of the deposited data

How the results depend on the processing

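*INSM1*, *CHGA*, *CHGB*, *SCG3*, *SYP* and *CPE* kept their direction and their call in each of the 14 alternatives, and *PCSK1N* lost its call in 9. The log2 difference ranged from −2.35 to −2.19 for *INSM1*, −4.62 to −3.53 for *CHGA*, −3.96 to −3.22 for *CHGB*, −4.12 to −2.96 for *SCG3*, −2.29 to −2.03 for *SYP* and −0.45 to −0.31 for *CPE*. With no filter, 2 neuroendocrine transcription factors were called in place of 4. Without the intensity trend, 3 prohormone processing enzymes were called in place of 5. With local median centring, 4 cofactors were called in place of 12, the 3 transcription factors called were all lower, *FURIN* turned to 0.27 and *SIN3A* to −0.059. The cause was not tested. Leaving out 1 library gave 11 to 15 other granule proteins, 3 to 5 processing enzymes and 1 to 3 transcription factors. Upper quartile scaling moved the median of all genes to 0.09 and turned the split of 2917 higher and 3244 lower genes into 3694 and 2450. *POU2F3* was called only with this scaling and with quantile normalization. The depth leaves *SCG2*, *SCG5* and *PCSK1* at a few reads, where a difference could not be measured well. No paired analysis was possible because the labels give the parental and resistant libraries different numbers and do not tie one to another, although the study describes the cells as matched.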
